A study of Mus musculus with 7 samples.

Results

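The genes examined were 38 genes of fatty acid uptake, activation and beta-oxidation, chosen by name. Of these, 34 had at least 1 probe set with a single gene symbol in the platform annotation, and each was represented by the brightest of them by mean over the 7 arrays. A filter on dim probe sets left 32 of them among the 8077 genes tested, out of 12393 genes with such a probe set. Cd36 and Fabp4 lay below the filter and are given as values. Cpt1b, Acsl1, Acsl3 and Ucp2 had no probe set with a single symbol in the annotation used, and were not analysed here.

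RNA came from LSK cells (negative for lineage markers, positive for Sca-1 and c-Kit), the fraction of bone marrow that is enriched in blood stem cells and early progenitors. The Lkb1 KO group (4 samples, numbers 4 to 7) was taken from mice with floxed Lkb1 alleles (Lkb1 L/L) and the rosa26CreERT2 transgene, a Cre recombinase that is made in most cell types and is active once tamoxifen is given. The Lkb1 WT group (3 samples, numbers 5 to 7) was taken from Lkb1 L/L mice that lacked this Cre. Both groups were adult C57BL/Ka-CD45.2:Thy-1.1 mice, both received tamoxifen for 5 days, and cells were sorted 1 day later, so the presence of Cre and the loss of Lkb1 cannot be told apart. This Cre is not confined to blood cells, and deletion of Lkb1 in other tissues was not measured here. Ages were not given. Nothing in the labels states that each sample was a separate animal, so p-values cover only the scatter among the 7 samples at hand, which may be technical.

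Long-chain fatty acids enter cells through membrane proteins, are carried by binding proteins, and are activated to acyl-CoA. The carnitine shuttle takes them into mitochondria, where each turn of beta-oxidation (dehydrogenation, hydration, a second dehydrogenation and thiolysis) releases acetyl-CoA and passes electrons to the respiratory chain through electron transfer flavoprotein. LKB1 is the main upstream kinase of AMPK, which is known to promote the entry of fatty acids into mitochondria by inhibiting acetyl-CoA carboxylase. Fatty acid oxidation is known to support the maintenance of blood stem cells.

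Most of the fatty acid genes lay close to 0, as did most genes. Only Acadl, the long-chain acyl-CoA dehydrogenase, passed the test (limma, adjusted p = 0.0488 over all 8077 genes, threshold 0.05), and it rose. That is 3.12% of the 32 members tested, where 5.44% of all genes passed, 2.48% higher and 2.96% lower in KO. At an unadjusted p under 0.05 there were 7 members higher and 1 lower, against 25.3% of all genes (11.7% higher and 13.6% lower). The median difference, KO minus WT on the log2(signal + 16) scale, was 0.08 for the members and -0.02 for all genes tested. Values of the members ran from -0.44 to 0.48, 19 lay above 0 and 13 below, and 21 were within 0.2 of 0. KO and WT arrays did not overlap for 9 members, 7 higher and 2 lower in KO, or 28.1%, where 24.1% of all genes did not overlap (11.4% higher and 12.7% lower). A less strict threshold of 0.10, added after the values were seen, was reached by 7 members, 6 of them higher in KO, among 13.1% of all genes (6.33% higher and 6.82% lower). Scale matters for every direction given here. Before normalization the tested genes had a median difference of 0.34 log2 units in favour of KO. The directions given are those after quantile normalization. Median centring changed the sign of 7 of 30 members and left 24 above 0. As deposited, the members' median was 0.44 on the same probe sets. Acadl is also the member on which the result turns, and it passed in none of the 7 fits that left out 1 array (adjusted p from 0.0746 to 0.12), nor with the Actb ratio described below as a covariate (0.37, adjusted p = 0.614), where no gene passed.

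**Figure D1:**
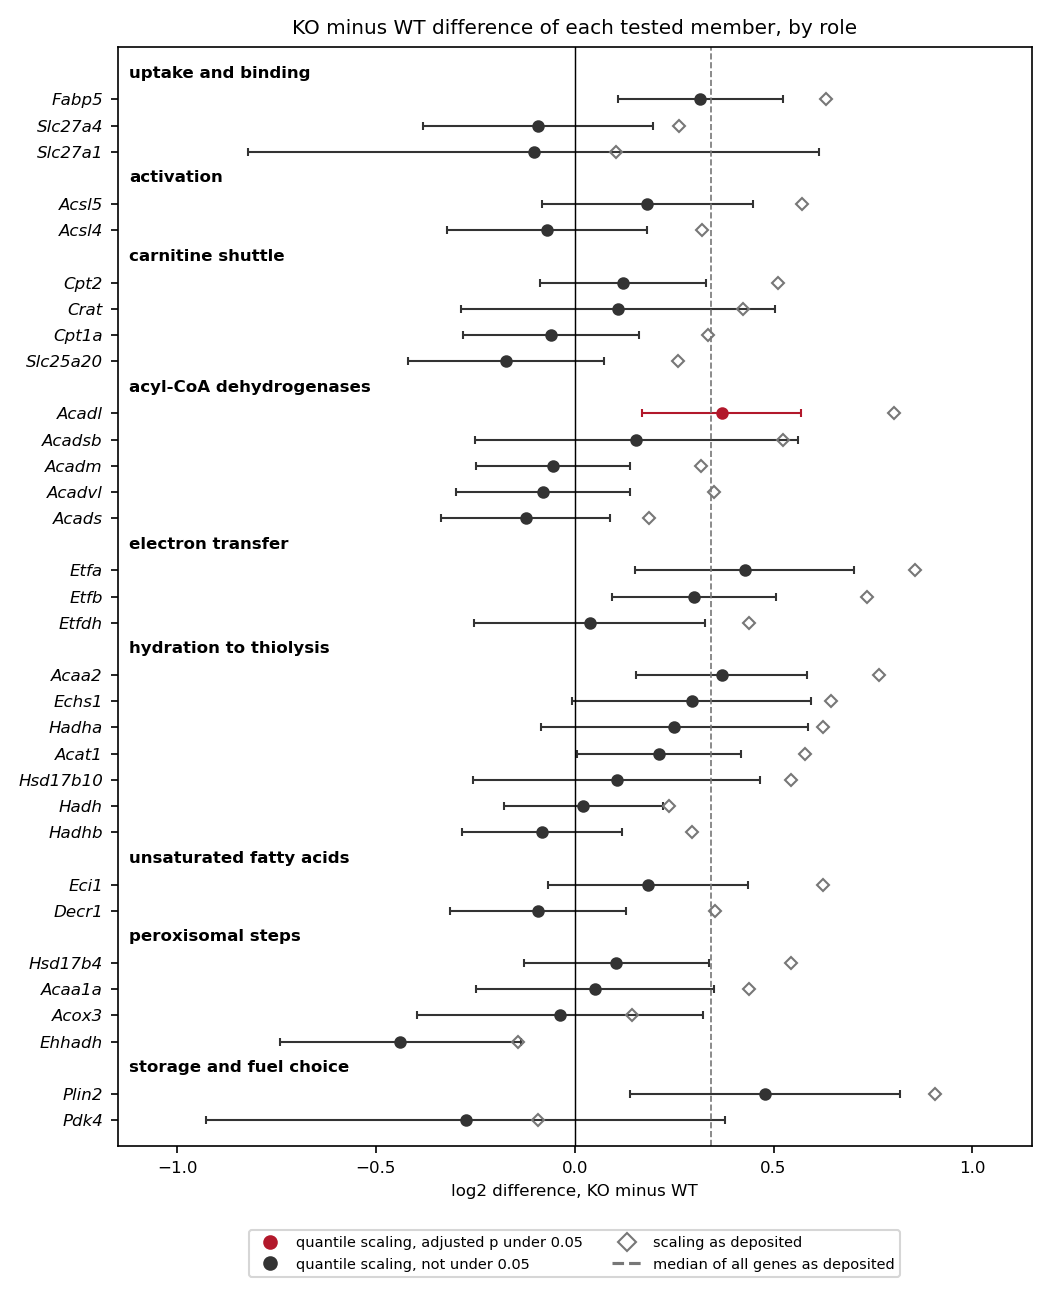
Log2 difference (KO minus WT, x axis) of the 32 tested members, ordered by role, as points with 95% confidence intervals from limma after quantile scaling, and as open diamonds in the scaling as deposited. Acadl (red) is the 1 member past the threshold, and the dashed line marks the shift of 0.34 of all genes as deposited.

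Stk11, which encodes LKB1, was at 7.18, 6.98, 6.68 and 6.44 on KO arrays and 7.63, 7.16 and 7.35 on WT arrays, with KO 4 just above WT 6, and its difference of -0.56 ± 0.19 did not pass the threshold (limma adjusted p = 0.117). A dimmer probe set of Stk11, below the filter and above background on 4 arrays, gave 0.70 with overlap, and whether either probe set lies in the deleted part was not tested. The arrays also differed in other ways. The trimmed mean of the deposited signals ranged from 360 to 426 for KO and from 229 to 341 for WT arrays (two-sided exact permutation p = 0.0286, the smallest that 4 against 3 samples allow). The ratio of the 3' to the 5' control probe sets of Actb was taken as a sign of RNA length. It ranged from 11.4 to 12.3 for KO and from 12.6 to 13.1 for WT arrays (exact permutation p = 0.0571). Every array thus read far more signal at the 3' end. Samples are given as 15000 to 20000 cells and 10 ng of RNA, and the part of this small amount in the ratio was not tested. Of 9 genes listed for LSK cells, Kit (c-Kit) was the 1 measured gene of the gate itself, and Ly6a (Sca-1) had no probe set with a single symbol. With Cd34, Flt3, Slamf1, Procr, Meis1 and Hlf, which mark stem and progenitor cells within it, 7 were measured and all 7 were above the background level on every array. After normalization Kit and Hlf were lower in KO, 2 of the 7. The summed normalized signal ranged from 10406 to 11374 for KO and from 13258 to 14515 for WT arrays. In deposited signal both genes overlapped between the groups. Kit read 1394.5 to 1659.3 on KO and 1209.9 to 1933.4 on WT arrays, and Hlf 988 to 1418.9 and 1172.4 to 1881.2. Granulocyte and monocyte markers summed to between 10530 and 14542 on KO and between 31566 and 43911 on WT arrays, with 11 of 13 tested markers lower. The brightest of them were S100a8, Ngp and Chil3. The surface receptor genes Itgam and Csf3r read higher on KO arrays before normalization, where the median gene was also higher in KO, by 0.34 log2 units. Itgam read 45.7 to 68.7 on KO and 27.1 to 33.9 on WT arrays, and Csf3r 352 to 398.3 and 234.9 to 354.5, with overlap. Erythroid markers (3480 to 4530 on KO, 4811 to 6433 on WT arrays, 1 of 7 tested higher and 1 lower) and stroma markers (1310 to 1632 and 1660 to 2578, 1 of 2 tested lower, Col1a1 at background) were also apart after normalization. These sums rest mainly on Car2 and Pdgfrb, whose deposited signals overlapped between the groups. Hba-a2 went the other way, at 371.5 to 467.5 deposited units on KO and 178.6 to 263.1 on WT arrays. Of the stroma markers, Cxcl12, Lepr and Pdgfra were not above background on every array. Summed megakaryocyte, macrophage, endothelial, B cell, and T and NK cell markers overlapped between the groups. The part of these differences in the values below was not tested, and in such bulk samples fewer cells of a type and less RNA per cell cannot be told apart. The background level, 13.6 signal units, is the 95th percentile of control probe sets for bacterial transcripts.

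Uptake and binding genes were led by Fabp5, a cytosolic fatty acid binding protein made in many cell types. Its level, as log2(signal + 16), was 13.12, 13.00, 12.89 and 13.01 on the KO arrays (numbers 4 to 7, the order kept below) and 12.73, 12.67 and 12.67 on the WT arrays (numbers 5 to 7). Each KO array was above each WT array. The difference of 0.32 ± 0.091 (SE), a 1.24-fold higher level in KO, did not pass the threshold (limma adjusted p = 0.0765). A second, dimmer probe set of Fabp5 gave 10.30, 10.10, 9.91 and 10.20 in KO and 9.47, 9.05 and 9.25 in WT. Its difference was 0.87, again without overlap (exact permutation p = 0.0286), so that both probe sets were higher in KO and differed in size.

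The membrane transporters were measured less well. Slc27a4, a fatty acid transport protein with acyl-CoA synthetase activity, was at -0.09 ± 0.13 (adjusted p = 0.685 in limma). Its relative Slc27a1 was dim, with deposited signals of 12.8 to 44.6 and above background on 4 KO and 2 WT arrays, and its 95% interval was wide, from -0.82 to 0.61. Cd36, the scavenger receptor and fatty acid translocase of macrophages, endothelium and platelets, read 17.0, 2.2, 5.6 and 18.1 signal units in KO and 12.6, 21.4 and 13.6 in WT. These lie at the background level, which was exceeded on 2 of 4 KO and 1 of 3 WT arrays. Fabp4, the binding protein of fat cells and macrophages, read 23.5, 16.9, 11.4 and 13.4 in KO and 11.7, 19.7 and 15.0 in WT, and its other 3 probe sets were dimmer. No fold is given for Cd36 or Fabp4, whose groups overlapped in every probe set (exact permutation p from 0.229 to 0.914 for Cd36 and from 0.286 to 1 for Fabp4). Of the 6 fat cell markers with a probe set, Lpl was above background on all 7 arrays, Adig on 4, Adipoq on 2, Lep and Retn on 1 each and Cidec on none. The macrophage markers summed to between 568 and 703 signal units on KO and between 598 and 699 on WT arrays.

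Activation to acyl-CoA is catalysed by the long-chain acyl-CoA synthetases. Acsl5, which is found in mitochondria and endoplasmic reticulum, was at 0.18 ± 0.12 and Acsl4, which prefers arachidonate, at -0.07 ± 0.11 (limma adjusted p = 0.363 and 0.729). Both groups overlapped for each. The dimmer probe sets of Acsl4 gave 0.39 and 0.22, with overlap, so the sign of Acsl4 is not settled by these arrays.

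The carnitine shuttle showed no member past the threshold. Cpt1a, the outer-membrane carnitine palmitoyltransferase that limits the rate of entry and is inhibited by malonyl-CoA, was at 8.42, 8.57, 8.54 and 8.72 in KO and 8.61, 8.61 and 8.65 in WT. KO 4 was lowest and KO 7 highest of all arrays. The difference was -0.06 ± 0.096, with a 95% interval of -0.28 to 0.16 (adjusted p = 0.743 in limma). Its other probe sets gave 0.12 and 0.27, both with overlap. Cpt2, the inner-membrane enzyme that restores acyl-CoA, was at 8.22, 8.23, 8.33 and 8.38 in KO and 8.10, 8.26 and 8.14 in WT, a difference of 0.12 ± 0.092 with overlapping groups (adjusted p = 0.44).

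Slc25a20, the carnitine-acylcarnitine carrier between these enzymes, was at 10.62, 10.75, 10.94 and 10.95 in KO and 10.99, 10.998 and 10.98 in WT. Each KO array lay below each WT array, but KO 6 and KO 7 by very little, and the difference of -0.17 ± 0.11 did not pass (limma adjusted p = 0.354). The scaling as deposited turned its sign, to 0.26, and its second probe set gave 0.09. Crat, carnitine acetyltransferase of short acyl groups, varied more among KO arrays (SD 0.34, n = 4) than among WT arrays (SD 0.022, n = 3), from 6.65 in KO 4 to 7.37 in KO 6, and was at 0.11 ± 0.17. Confidence intervals of the 4 shuttle genes ran from -0.42 at the lowest to 0.50 at the highest.

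The acyl-CoA dehydrogenases catalyse the first step and differ in the chain length they accept. Acadl was at 9.74, 9.87, 9.82 and 9.91 in KO and 9.40, 9.52 and 9.48 in WT. The lowest KO array, KO 4, lay above the highest WT array, WT 6. Acadl rose by 0.37 ± 0.087, or 1.29-fold, from 9.47 ± 0.062 (SD, n = 3) to 9.84 ± 0.069 (SD, n = 4). In deposited signal it was 1068.2, 1086.9, 951.6 and 999.3 in KO and 661.3, 653.0 and 454.0 in WT. The call lies at the threshold: over 19 alternatives the difference ran from 0.34 to 0.80 and the adjusted p from 0.0118 to 0.614, with 5 calls and 1 direction throughout. A second probe set of Acadl was not above background on any array.

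None of the other dehydrogenases passed the threshold. Acadvl, which acts on very long chains at the inner membrane, was at 9.30, 9.24, 9.26 and 9.31 in KO and 9.37, 9.20 and 9.49 in WT. Acadm, the medium-chain enzyme, was at 11.47, 11.37, 11.39 and 11.35 in KO and 11.46, 11.38 and 11.51 in WT. Both groups overlapped, with differences of -0.08 ± 0.096 and -0.05 ± 0.085 (limma adjusted p = 0.639 and 0.729). For Acadm the 95% interval ran from -0.25 to 0.14. Acads, of short chains, was at -0.12 ± 0.093, and Acadsb, of short and branched chains, at 0.15 ± 0.18, both with overlap. The median of the 5 dehydrogenases was -0.05. The differences between Acadl and the others were not tested.

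Electrons from all acyl-CoA dehydrogenases pass to electron transfer flavoprotein, a dimer of Etfa and Etfb, and from it through Etfdh to ubiquinone. Etfa was at 9.31, 9.72, 9.45 and 9.50 in KO and 9.06, 8.93 and 9.20 in WT. Etfb was at 10.50, 10.68, 10.50 and 10.65 in KO and 10.27, 10.31 and 10.26 in WT. KO and WT arrays were apart for both genes, and KO 5 was the highest array in each. Neither passed the threshold, at 0.43 ± 0.12 for Etfa (1.34-fold, limma adjusted p = 0.0736) and 0.30 ± 0.090 for Etfb (1.23-fold, adjusted p = 0.0869). Etfdh gave 8.54, 9.05, 8.85 and 8.76 in KO and 8.82, 8.78 and 8.69 in WT, a difference of 0.04 ± 0.13 with overlap, and here too KO 5 was highest. Each of these 3 genes had 1 probe set.

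**Figure D2:**
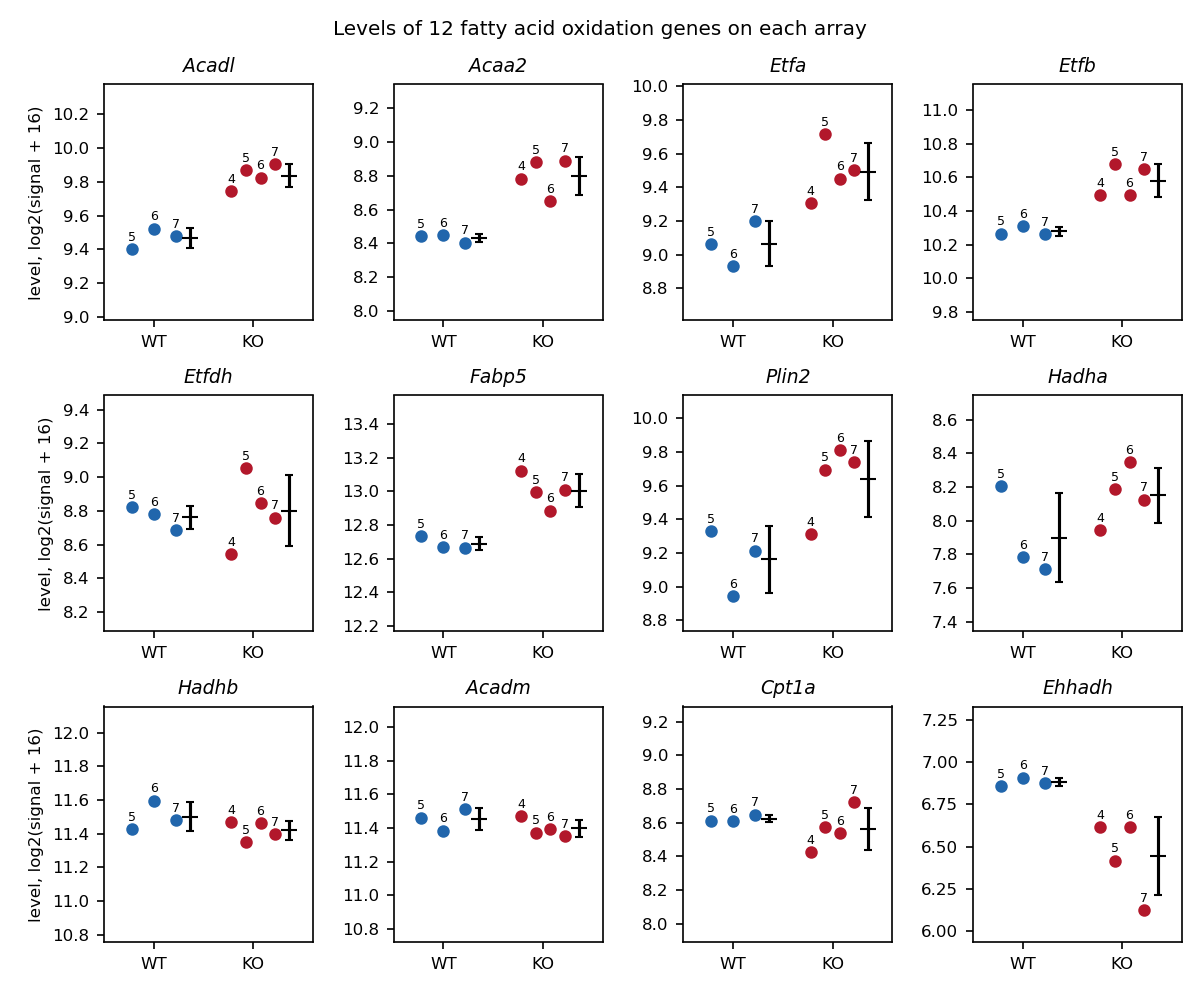
Level of 12 members, log2(signal + 16) after quantile scaling (y axis, the same 1.4-unit span in each panel), on each WT (blue) and KO (red) array, numbered by sample, with the mean and SD of each group in black. KO arrays lie above WT arrays for Acadl, Acaa2, Etfa, Etfb and Fabp5 and below them for Ehhadh, while those of Acadm and Cpt1a overlap.

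The steps from hydration to thiolysis, the role with the most tested members, had 6 of 7 above 0, with a median of 0.21 and no call. All 3 electron transfer genes lay above 0, with a median of 0.30, as did 47.6% of all genes tested. Acaa2, the thiolase of medium and long chains that ends each turn, was at 8.78, 8.88, 8.65 and 8.89 in KO and 8.44, 8.45 and 8.40 in WT. WT arrays lay close to each other and below all KO arrays. The difference was 0.37 ± 0.093, or 1.29-fold, and missed the threshold (limma adjusted p = 0.0583). Its other 2 probe sets were also apart, with differences of 0.49 and 0.94 (exact permutation p of 0.0286 in both cases), the dimmest being above background on 2 of 3 WT arrays. Acaa2 passed under 6 of 19 alternatives, with adjusted p from 0.0164 to 0.719.

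Acat1, the thiolase of acetoacetyl-CoA, which also serves ketone body and isoleucine breakdown, was at 12.17, 12.17, 11.97 and 12.12 in KO and 11.89, 11.86 and 11.93 in WT. The groups did not overlap, KO 6 being barely above WT 7, and the difference was 0.21 ± 0.090 (limma adjusted p = 0.186). Its other probe sets overlapped, at 0.24 and 0.06. Echs1, the short-chain enoyl-CoA hydratase, was at 7.44, 7.72, 7.82 and 7.34 in KO and 7.30, 7.31 and 7.25 in WT. KO 7 exceeded WT 6 by a small margin, and the difference of 0.29 ± 0.13 had an adjusted p of 0.207 in limma.

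Hadha and Hadhb encode the alpha and beta subunits of the mitochondrial trifunctional protein, which carries out the last steps on long chains. Hadha was at 7.95, 8.19, 8.35 and 8.13 in KO and 8.20, 7.79 and 7.71 in WT, with WT 5 among the KO values. Hadhb was at 11.47, 11.35, 11.46 and 11.40 in KO and 11.43, 11.60 and 11.48 in WT. Neither differed beyond the spread, at 0.25 ± 0.15 and -0.08 ± 0.088 (limma adjusted p = 0.326 and 0.595). The other probe set of Hadhb gave 0.19 with overlap. Hadh, the dehydrogenase of shorter hydroxyacyl-CoA, was at 0.02 ± 0.087 on its brightest probe set and at -0.06 and -0.80 on the others. The last was low on 1 array, KO 7, at 5.37 against 6.95 to 8.02 on the other arrays. Hsd17b10, which acts on branched short chains and is also a subunit of mitochondrial RNase P, was at 0.11 ± 0.16. For unsaturated chains, the isomerase gene Eci1 was at 0.19 ± 0.11 and the reductase gene Decr1 at -0.09 ± 0.097, both with overlap.

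Peroxisomes shorten very long and branched chains with their own enzymes. Ehhadh, the bifunctional enzyme of this pathway and a well-known PPAR-alpha target in liver, was the lowest member. It was at 6.62, 6.42, 6.62 and 6.12 in KO and 6.86, 6.91 and 6.88 in WT. Each KO array lay below each WT array, and KO 7 was furthest down. The difference of -0.44 ± 0.13 (0.738-fold) did not pass (limma adjusted p = 0.087). As deposited it was -0.14 ± 0.22 (limma adjusted p = 0.635), so that Ehhadh stayed below 0 where most genes were above it. Its groups were not apart in that scaling, at 55.3 to 101.8 signal units on KO and 69.7 to 103.2 on WT arrays. Hsd17b4, the other multifunctional enzyme, was at 0.10 ± 0.10, the thiolase gene Acaa1a at 0.05 ± 0.13 and the oxidase gene Acox3, a dim gene, at -0.04 ± 0.16, all with overlap. A further 2 probe sets that name Acaa1a also name its near-identical neighbour Acaa1b and were not used, and whether the probe set used here measures Acaa1b as well was not tested.

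Plin2 and Pdk4 mark lipid loading and fuel choice. Plin2, which coats lipid droplets, had the largest positive difference of the members. It was at 9.31, 9.69, 9.81 and 9.74 in KO and 9.33, 8.94 and 9.21 in WT. KO 4 lay just below WT 5 and the other KO arrays above all WT arrays, and the difference of 0.48 ± 0.15 (1.39-fold) had an adjusted p of 0.0934 in limma. Pdk4, the kinase that inactivates pyruvate dehydrogenase when fatty acids are burned, was at 5.06, 5.38, 6.25 and 4.99 in KO and 5.79, 5.49 and 5.80 in WT. It was dim, at 16 to 63.4 deposited signal units, and KO 6 stood above the other KO arrays. Its difference of -0.27 ± 0.28 was within the spread (limma adjusted p = 0.584).

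Over all 32 members, the median deviation from the WT mean was -0.01, 0.05, 0.09 and 0.11 log2 units on the KO arrays and 0.01, -0.02 and 0.02 on the WT arrays. The 3 electron transfer genes had medians of 0.22, 0.40, 0.22 and 0.37 on the KO arrays. These were the highest of the roles on KO 4, KO 5 and KO 7, while on KO 6 storage and fuel choice, from Plin2 and Pdk4, was higher at 0.60. The carnitine shuttle was at -0.22 on KO 4 and between 0.01 and 0.06 on the other KO arrays, so that KO 4 differed from them for this role.

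**Figure D3:**
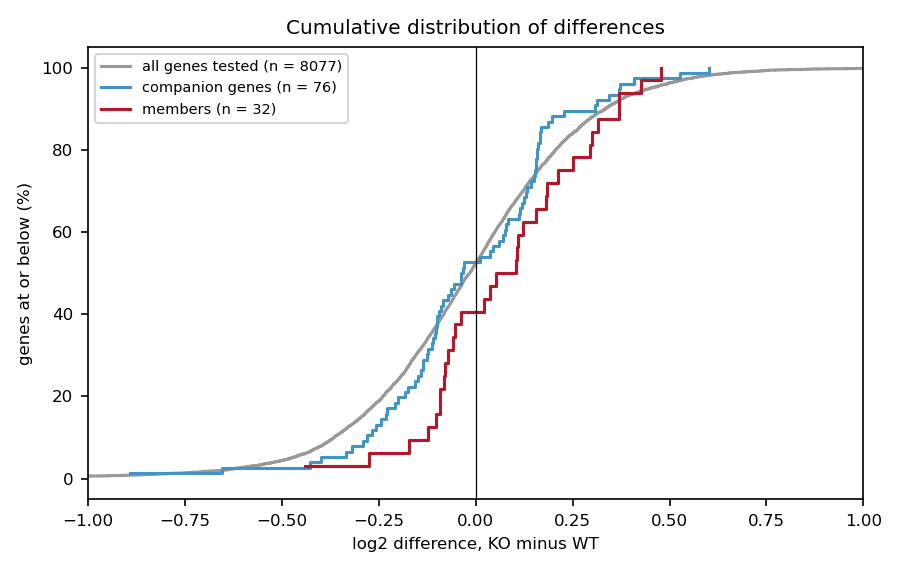
Share of genes (y axis, %) with a log2 difference, KO minus WT, at or below the value on the x axis, for all 8077 genes tested, 76 companion genes and 32 members. The members' curve lies to the right of that of all genes over most of its range, with medians of 0.08 and -0.02.

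Several members were measured by more than 1 probe set. Of 16 further probe sets above the filter, 8 had the same sign as the brightest and 8 the opposite sign, and those of opposite sign belonged to Acsl4, Cpt1a, Slc25a20, Hadhb, Hadh and Decr1, whose brightest probe sets were all within 0.2 of 0. Without overlap between the groups were 3 of them, of Fabp5 and Acaa2. Many of the brightest probe sets were of the _x_at, _s_at or _a_at kind, which can match more than 1 transcript, among them those of Hadh, Hadhb, Hsd17b4, Acadsb, Acaa1a, Acaa2, Acat1 and Fabp5. That of Acadl was not.

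**Figure D4:**
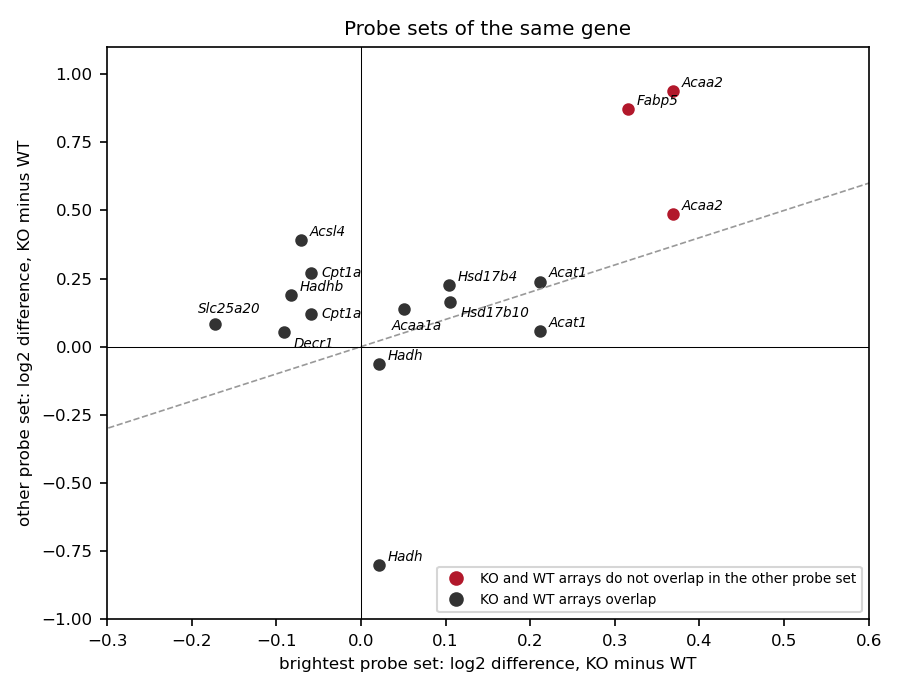
Log2 difference, KO minus WT, of each further probe set above the filter (y axis) against that of the brightest probe set of the same gene (x axis), with equality dashed. The 3 red points, of Fabp5 and Acaa2, are probe sets whose KO and WT arrays did not overlap, and both genes lie above 0 on both axes.

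To show the regulatory sequence of the genes described, the 250 bases before the start site are given for 6 of them, from RefSeq on GRCm38.p6: Acadl, which passed the test, Etfa and Etfb, whose products form 1 dimer, Hadhb, whose start is 272 bases from that of Hadha on the other strand, Plin2 and Ehhadh, the highest and lowest members. Windows are chr1:66863310-66863559 (minus strand) for Acadl, chr9:55512244-55512493 (minus) for Etfa, chr7:43443822-43444071 (plus) for Etfb, chr5:30155003-30155252 (plus) for Hadhb, chr4:86670060-86670309 (minus) for Plin2 and chr16:21787835-21788084 (minus) for Ehhadh. Capitals mark matches, on either strand, to the GC box GGGCGG, to the CCAAT box, to the nuclear receptor half-site AGGTCA and to an NRF1-type repeat (GCGC, any 2 bases, then GCGC again).
Acadl: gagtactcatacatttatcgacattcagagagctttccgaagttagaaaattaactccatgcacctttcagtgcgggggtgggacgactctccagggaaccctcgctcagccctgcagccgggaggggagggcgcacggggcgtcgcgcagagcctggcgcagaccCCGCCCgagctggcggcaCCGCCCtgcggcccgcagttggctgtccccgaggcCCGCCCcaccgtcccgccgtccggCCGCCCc
Etfa: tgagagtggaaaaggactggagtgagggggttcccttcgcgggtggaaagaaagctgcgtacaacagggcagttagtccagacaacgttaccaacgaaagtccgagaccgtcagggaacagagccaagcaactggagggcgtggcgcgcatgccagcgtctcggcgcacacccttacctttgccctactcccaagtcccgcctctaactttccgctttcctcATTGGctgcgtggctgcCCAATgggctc
Etfb: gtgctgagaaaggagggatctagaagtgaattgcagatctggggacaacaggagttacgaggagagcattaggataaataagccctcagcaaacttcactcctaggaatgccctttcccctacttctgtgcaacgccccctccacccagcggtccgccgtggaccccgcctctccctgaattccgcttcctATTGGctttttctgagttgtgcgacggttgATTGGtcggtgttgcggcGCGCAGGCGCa
Hadhb: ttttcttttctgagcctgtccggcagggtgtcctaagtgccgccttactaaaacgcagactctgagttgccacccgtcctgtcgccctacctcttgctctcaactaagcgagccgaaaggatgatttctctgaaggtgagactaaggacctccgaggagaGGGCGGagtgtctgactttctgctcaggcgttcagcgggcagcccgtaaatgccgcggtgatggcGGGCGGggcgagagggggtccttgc
Plin2: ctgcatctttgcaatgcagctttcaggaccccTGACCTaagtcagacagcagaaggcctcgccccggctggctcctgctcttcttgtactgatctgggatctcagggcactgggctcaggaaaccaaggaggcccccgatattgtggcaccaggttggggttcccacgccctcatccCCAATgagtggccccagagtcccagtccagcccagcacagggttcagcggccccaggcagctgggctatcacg
Ehhadh: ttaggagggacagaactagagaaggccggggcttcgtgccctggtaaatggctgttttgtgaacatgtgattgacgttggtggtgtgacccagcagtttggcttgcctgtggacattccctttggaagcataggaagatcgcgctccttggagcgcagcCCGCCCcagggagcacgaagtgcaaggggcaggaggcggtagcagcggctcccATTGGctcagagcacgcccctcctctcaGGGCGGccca

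Acadl held 4 GC boxes, the nearest 7 bases before the start, and no CCAAT. Etfa and Etfb held 2 CCAAT matches each and no GC box, and Etfb 1 NRF1-type repeat. Hadhb held 2 GC boxes. Ehhadh held 2 GC boxes and 1 CCAAT, and Plin2 held 1 CCAAT and 1 half-site. The Hadha and Hadhb windows shared 228 bases. Windows were found for 30 of the 38 members, 33 in all. These include windows of Cd36, Acsl1, Acsl3 and Ucp2, which were not among the tested genes. A GC box lay in 69.7% of the 33 member windows, in 57.9% of 8581 windows of tested genes and in 32.7% of all 32851 windows. CCAAT lay in 48.5%, 34.9% and 33.8%. AGGTCA lay in 18.2%, 10.8% and 14.0%, and its 6 genes were Acadm, Acadvl, Cd36, Cpt1a, Echs1 and Plin2. The NRF1-type repeat lay in 6.06%, 10.9% and 4.98%, and the E-box CACGTG in 3.03%, 8.36% and 6.02%. A direct repeat of the half-site with 1 base between its copies, and the estrogen-related receptor site TCAAGGTCA, both of which contain the half-site, matched no member window and 0.0335% and 0.387% of all windows. Median GC content was 59.6% in member windows and in those of tested genes. A match describes letters and is not a binding site.

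Companion genes of fatty acid handling, 123 in 7 lists, gave 76 tested genes with 2 higher and 1 lower, or 3.95%, and a median of -0.03. The rises were in Dbi, the acyl-CoA binding protein that carries activated fatty acids, and Slc25a5, the adenine nucleotide translocase of dividing cells. Dbi was at 11.003, 11.32, 11.15 and 11.18 in KO and 10.54, 10.79 and 10.35 in WT, apart, and rose by 0.60 ± 0.13 (limma adjusted p = 0.0358). Of its other 3 probe sets, 2 were also apart, at 0.55 and 0.41, and the last was at 0.13. Slc25a5 was at 12.99, 12.95, 12.93 and 12.98 in KO and 12.63, 12.58 and 12.64 in WT, and rose by 0.34 ± 0.080 (adjusted p = 0.0456). Differences of its 8 probe sets ran from 0.22 to 0.63, and the groups were apart in all but that at 0.39. Most of these probe sets are of the _x_at kind, and the signal of Slc25a5 can include processed copies of the gene. Lpl, the lipoprotein lipase that releases fatty acids from lipoproteins, was at 6.03, 6.06, 5.93 and 6.19 in KO and 6.83, 6.91 and 6.37 in WT, and fell by 0.65 on the log2 scale (adjusted p = 0.0389, as deposited -0.39). A second, dimmer probe set of Lpl, below the filter, was at -0.11 with overlap (exact permutation p = 0.6). As deposited, the signals of the brighter probe set overlapped, at 46.7 to 60 on KO and 45.7 to 100.8 on WT arrays. Lpl is also the fat cell marker named above. The summed fat cell markers, Lpl included, were at 80.8 to 92.1 on KO and 117 to 154 on WT arrays. Lpl was the brightest of them on every array, and the others read at most 22.3 deposited signal units. The sum therefore largely counts Lpl again and cannot show fat cells apart from it. The part of fat cells in the fall was not tested. Without 1 array, Dbi and Slc25a5 passed in none of 7 fits and Lpl in 1.

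By list, none of 12 tested regulators passed in limma, with 2 at an unadjusted p under 0.05, the coactivator genes Pprc1 at 0.41 ± 0.13 (adjusted p = 0.103) and Ppargc1a at -0.89 ± 0.38 (adjusted p = 0.189). Of 10 tested genes of carnitine supply and transport, Dbi rose and the acetyl-CoA synthetase gene Acss2 was at -0.40 ± 0.12 (adjusted p = 0.087). Of 19 other mitochondrial oxidation genes none passed, 3 had an unadjusted p under 0.05 and the median was 0.15. They were Ivd of leucine breakdown at 0.37 ± 0.097 (adjusted p = 0.0608) and the ketone body genes Bdh1 at 0.53 ± 0.16 (adjusted p = 0.0881) and Oxct1, named after its value was seen, at 0.37 ± 0.12 (adjusted p = 0.105). Peroxisomal genes had a median of -0.10 with none of 14 past the threshold and 2 at an unadjusted p under 0.05, Hacl1 at -0.32 ± 0.11 and Amacr at -0.27 ± 0.11 (limma adjusted p = 0.111 and 0.183). In lipid droplets and lipolysis, 1 of 11 (Lpl) fell and the lysosomal lipase gene Lipa was at -0.43 ± 0.11 (adjusted p = 0.0601). None of 6 thioesterases passed or had an unadjusted p under 0.05, with Acot7 at 0.16 ± 0.10 and Acot6 at -0.18 ± 0.13 (limma adjusted p = 0.362 and 0.427). Among 4 tested uncoupling proteins and carriers, Slc25a5 rose and Ucp3 was at -0.29 ± 0.16 (adjusted p = 0.294).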

How the data were processed

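The 38 members and all gene lists were chosen with earlier results of these data known. The deposited values are linear signal intensities, 1 for each probe set on each array, and MAS5 is named as the tool per the submitters' processing notes, with settings and version not given in the sources used here. Of 22690 probe sets 64 are controls. By the platform annotation 20380 of the others had 1 gene symbol, 691 several and 1555 none, and 20351 of the first kind matched the gene table of GRCm38.p6. Values were taken as log2(signal + 16), which understates changes of dim genes, and quantile normalized over non-control probe sets, since trimmed means differed between arrays. Probe sets above the 40th percentile of the mean log2 value entered the fit, the brightest per gene. The fit of genotype used lmFit and eBayes of limma 3.58.1 under R 4.3.3, on 5 residual degrees of freedom. P-values were adjusted over the 8077 genes by Benjamini-Hochberg, and calls were made at 0.05. An SE or interval is limma's. Single probe sets outside the fit were compared by two-sided exact permutation over 35 splits, where the smallest p is 0.0286. The number of arrays limits the precision. The fit was tested on simulated data with changes of 1 log2 unit and no scale difference between arrays. All members' differences in the fit were smaller, so that test does not cover them.

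Values by array were given for members past the threshold, the 10 of lowest p and a fixed set of members, and each companion list gave its genes past the threshold and up to 2 of lowest p. Alternatives covered scaling (as deposited, median centring, cyclic loess), pseudocount (1, 64), filter (none, 60th percentile), averaging of probe sets, the prior, weighting of arrays, a block for the replicate number, the Actb ratio as a covariate and leaving out each array. Other values by array were given where an array or a further probe set stood apart.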

Additional observations from a re-analysis of the deposited data

How the results depend on the processing

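Across 12 alternatives and 7 fits without 1 array, Acadl, Acaa2, Etfa, Etfb, Fabp5 and Plin2 kept their direction, as did Ehhadh in the 18 of these 19 in which it was tested (not with the 60th percentile filter), and the call of Acadl did not hold under most. The count of members past the threshold in limma was 1 of 32. It was 8 of 30 in the scaling as deposited, 5 of 30 with median centring and 3 of 32 with a pseudocount of 64. It was 4 of 26 with the 60th percentile filter, 2 of 32 with averaged probe sets and 6 of 32 with a trended robust prior. All of these were higher in KO, and the shares of all genes are given below. The count of members was 7 at an adjusted p under 0.10, a threshold added after seeing the data. With cyclic loess, a pseudocount of 1, no filter, array weights, the replicate block, the Actb ratio as a covariate and without each array in turn it was 0, with 6 to 8 members at an unadjusted p under 0.05 in limma. The count over all genes was 439, or 5.44%. As deposited it was 1415 (17.5%), of which 1372 were higher and 43 lower in KO. With median centring it was 711 (8.81%), 545 higher and 166 lower. It was 700 (8.67%) with a pseudocount of 64 and 715 (12.1%) with the 60th percentile filter. Averaged probe sets gave 379 (4.69%) and the trended prior 915 (11.3%). The count over all genes was 74 with no filter, where more genes were tested, and 0 with the Actb ratio (713 at an unadjusted p under 0.05). Without 1 array it ran from 45 (KO 7) to 195 (KO 6). The cause of these changes was otherwise not tested. The members' median was 0.48 as deposited (0.34 over all genes) and 0.21 with median centring (0.08 over all genes), and ran from 0.04 to 0.10 without 1 array. As deposited, 10 of 30 members changed sign, all from below to above 0: Slc27a4, Acsl4, Cpt1a, Slc25a20, Acadvl, Acadm, Acads, Hadhb, Decr1 and Acox3. With median centring 7 of 30 did. Acsl4, Cpt1a, Acadvl, Acadm, Hadhb and Decr1 moved above 0 and Hadh below it.

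Numbers 5 to 7 are shared by both groups. Same-numbered arrays deviated together weakly (correlations of 0.03, 0.10 and 0.05 across genes, each the highest among the shared numbers). Other combinations of these numbers were at -0.07 to -0.007. The main fit had genotype as its only term, and whether the numbers mark pairs or batches was not tested. With the replicate block, which leaves out KO 4 and has fewer degrees of freedom, 1 gene passed in all. Acadl was there at 0.40 (limma adjusted p = 0.147).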
